A study of Mus musculus with 2 samples.

Results

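Genes that mark T cells able to renew themselves and to travel between tissue and blood were followed in single cells of mouse optic nerve. They are Tcf7, Lef1, Bach2, Id3, Il7r, Slamf6, S1pr1, Klf2 and Klf3, taken by symbol as 9 of the 32285 genes counted, and all 9 were found in both libraries. The cells came from Nf1-OPG mice, a model of optic glioma. Per the series' design text, these animals have a floxed Nf1 allele and a second Nf1 allele disrupted in exon 31 by a neomycin cassette, and GFAP-Cre removes the floxed allele in neuroglial progenitors, so all other cells, T cells among them, carry 1 disrupted allele. The 2 treatment groups were an antibody to PD-1 (the label names it anti-PDCD1) and an antibody to TIGIT, both of them receptors that restrain T cells. Each group is 1 library made from the pooled optic nerves of 10 mice aged 12 weeks, whose live cells were sorted by exclusion of the dye 7-AAD. The extraction text also speaks of meningeal dura, so cells of the nerve sheath may be included. Untreated and control genotype animals were not analysed here.

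TCF-1 (gene Tcf7) and LEF-1 are related DNA-binding proteins that keep naive, memory and progenitor-exhausted T cells from becoming terminal effectors. Bach2 and Id3 hold back effector programmes, the IL-7 receptor alpha chain Il7r gives a survival signal, and Slamf6 is a surface receptor widely used to find the progenitor-exhausted subset. KLF2 switches on S1pr1, the receptor for sphingosine 1-phosphate that lets lymphocytes leave tissue, and KLF3 is a related factor of the same family that mostly acts as a repressor.

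The 2 libraries held 13997 barcodes with 85031565 UMIs (unique transcript molecules) under anti-PD-1 and 7915 barcodes with 40733655 UMIs under anti-TIGIT. After filtering, 13275 and 7495 cells remained, with medians of 4453 and 4126 UMIs. The libraries shared 163 barcodes, 149 of them among the kept cells. Cells were assigned to a class when the largest share of a class's markers was detected, with at least 3 markers, and no gene of the 9 was a marker. Oligodendrocytes, the myelin-forming cells of the optic nerve, were the largest class, with 2779 and 2036 cells. CD8 T cells were T cells with a Cd8a or Cd8b1 UMI and no Cd4, Foxp3 or Trdc UMI. There were 1585 of them under anti-PD-1 and 648 under anti-TIGIT, 11.9% and 8.65% of kept cells, with medians of 3847 and 3096 UMIs. Conventional CD4 T cells numbered 571 and 323, and T cells with no deciding UMI, called other T cells, 968 and 444. Each treatment is 1 library, so the treatment, the pool of mice and the library cannot be told apart, and no test was possible. Levels are given as CPM, the UMIs of a gene scaled to a total of 1e+06 UMIs in the class. Ratios are log2 of anti-PD-1 over anti-TIGIT, and 95% intervals are exact Poisson for a level, exact conditional binomial for a ratio and Clopper-Pearson for a share. They cover counting error only, not the spread between mice, and treat the UMIs of 1 cell as independent.

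The CD8 T gate was not equally clean in the 2 libraries. The 7 microglial gate markers summed to 168 CPM in anti-PD-1 CD8 T cells, with none at 0, and to 50.04 CPM under anti-TIGIT, where Sall1 was at 0. C1qa, a complement gene of microglia, stood at 296 and 13.02 CPM. A T cell that also carried at least 3 markers of another class was called mixed. Mixed cells were 102 CD8 T cells (6.44%) under anti-PD-1 and 12 (1.85%) under anti-TIGIT, and without them C1qa was at 75.0 and 12.3 CPM. The 8 oligodendrocyte markers summed to 82.0 and 40.7 CPM in the CD8 T cells, the 7 plasma cell markers to 1402 and 1085 CPM and the 8 B cell markers to 50.5 and 51.7 CPM. Pax5 was at 0 in both libraries and Tnfrsf17, of the plasma cell list, under anti-TIGIT. The main ratios are therefore given with and without mixed cells.

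Promoter sequence is shown for the 3 genes whose CD8 T cell level was at least 1 log2 unit lower under anti-PD-1, in all gated cells (Lef1, Klf3) or once mixed cells were left out (Klf2). The windows are bases before an annotated transcription start that also lie before the gene's first GENCODE base, 5′ to 3′ on the gene's strand, from RefSeq GRCm38.p6. Capitals mark CACCC or its reverse complement GGGTG, the core bound by KLF factors, and CTTTG or CAAAG, the core bound by TCF-1 and LEF-1, searched on both strands.
Lef1, chr3:131110047-131110296, plus strand: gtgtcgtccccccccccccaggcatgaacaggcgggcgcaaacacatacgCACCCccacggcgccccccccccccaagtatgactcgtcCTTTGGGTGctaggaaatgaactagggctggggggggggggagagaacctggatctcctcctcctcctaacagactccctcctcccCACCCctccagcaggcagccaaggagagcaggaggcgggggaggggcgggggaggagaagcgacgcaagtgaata
Klf2, chr8:72318812-72319032, plus strand: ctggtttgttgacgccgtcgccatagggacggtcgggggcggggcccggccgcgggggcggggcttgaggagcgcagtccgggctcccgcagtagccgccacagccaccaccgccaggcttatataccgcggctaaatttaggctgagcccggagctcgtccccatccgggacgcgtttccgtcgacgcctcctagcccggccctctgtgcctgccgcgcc
Klf3, chr5:64803271-64803387, plus strand: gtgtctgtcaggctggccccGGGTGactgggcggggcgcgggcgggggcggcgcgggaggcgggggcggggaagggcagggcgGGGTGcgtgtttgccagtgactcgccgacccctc
The Lef1 window, the first of 4 start sites, held 3 CACCC matches and 1 CTTTG match, and the letters of that CTTTG overlap those of a GGGTG. It also overlaps an exon of Gm43352. The Klf2 window of 221 bases held neither motif. The Klf3 window of 117 bases, which overlaps an exon of the antisense gene Gm20033, held 2 CACCC matches, both as GGGTG, and no CTTTG. Among the 32851 promoters of 27025 genes, 52.0% held a CACCC and 48.6% a CTTTG in 250 bases, 48.0% and 45.1% in 221 bases, and 28.4% and 28.2% in 117 bases. The matches describe letters only. Entries were matched for 8 of the 9 genes, and S1pr1 was not matched. GC content was 66.4% for Lef1, 71.5% for Klf2 and 79.5% for Klf3.

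In GRCm38 with the GENCODE vM21 annotation, Tcf7 lies on the minus strand at chr11:52252371-52283014 and Lef1 on the plus strand at chr3:131110471-131224356. Bach2 (chr4:32238804-32586108) and Id3 (chr4:136143497-136145755) are both on the plus strand of chromosome 4. Il7r (chr15:9505788-9530176) and S1pr1 (chr3:115710433-115715072) are on minus strands, and Slamf6 (chr1:171917515-171953170), Klf2 (chr8:72319033-72321656) and Klf3 (chr5:64803388-64832901) on plus strands. Counted genes overlap Tcf7 (A630014C17Rik, antisense), Bach2 (Bach2it1 and the antisense Bach2os), Slamf6 (Gm37065, antisense) and Klf3 (Gm20033, antisense). How the counting used strand is not given in the sources used here, so the counts of these 4 genes could share reads with their neighbours.

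In CD8 T cells, Klf3 showed the widest gap of the 9 genes between the libraries. It had 219 UMIs under anti-PD-1 and 238 under anti-TIGIT, within 7385920 and 2457851 UMIs of the class, so that levels were 29.7 and 96.8 CPM and the log2 ratio was -1.71 (95% interval -1.98 to -1.44). It was the 1 gene of 9 that was at least 2-fold lower on the scale of log2(CPM + 5), against 0.813% of the 9835 genes with at least 50 UMIs; no member was at least 2-fold higher, against 2.5% of those genes. Without mixed cells the levels were 31.3 and 97.7 CPM, the ratio was -1.64, and Klf3 was again the 1 gene called, against 0.72% of 9448 genes lower and 1.82% higher.

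The transcription factors of the progenitor programme differed among themselves. Tcf7 had 668 and 320 UMIs, 90.4 CPM under anti-PD-1 and 130.2 CPM under anti-TIGIT, a log2 ratio of -0.53 (-0.72 to -0.33). Lef1, its partner, had 256 and 174 UMIs, or 34.7 and 70.8 CPM, and a ratio of -1.03 (-1.31 to -0.74). On the log2(CPM + 5) scale the Lef1 difference was -0.93, just short of 2-fold. Bach2, which restrains effector genes, was level, with 88.7 CPM in both libraries and a ratio of 0.00 (-0.22 to 0.23). Id3, an inhibitor of E proteins, was sparse: 63 and 38 UMIs, 8.53 and 15.5 CPM, and a ratio of -0.86 (-1.46 to -0.24). Its 10 highest cells held 46.0% and 50% of its UMIs, so the interval understates its error.

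Of the surface receptors, Il7r was lower under anti-PD-1 and Slamf6 showed no resolved difference. Il7r had 1628 and 738 UMIs, 220.4 and 300.3 CPM, with a ratio of -0.45 (-0.57 to -0.32). Slamf6 stood at 51.4 and 56.6 CPM, with a ratio of -0.14 and an interval of -0.42 to 0.15 that holds 0.

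The circulation genes were all lower in the anti-PD-1 CD8 T cells, with S1pr1 unresolved. S1pr1 had 101 and 46 UMIs, 13.7 and 18.7 CPM, and a ratio of -0.45 (-0.97 to 0.08). Klf2 had 721 and 345 UMIs, 97.6 and 140.4 CPM, and a ratio of -0.52 (-0.71 to -0.33). The Klf2 value depended on the mixed cells more than any other: without them it was at 64.8 and 131 CPM with a ratio of -1.02 (-1.23 to -0.80). Microglia held 1896 and 3207 CPM of Klf2. The microglial transcripts C1qa, C1qb and C1qc stood in anti-PD-1 CD8 T cells at 2.55% to 2.79% of their microglial level. That share of microglial Klf2 would be 48.4 to 52.9 of the 97.6 CPM. Without mixed cells the shares were 0.67% to 0.863%, or 12.7 to 16.4 of 64.8 CPM. Under anti-TIGIT they were 0.157% to 0.177%, or 5.04 to 5.69 of 140.4 CPM. Other microglial transcripts gave a wider range in all gated cells: from P2ry12 (1.67%, or 31.7 CPM) to Ctss (4.21%, or 79.7 CPM) under anti-PD-1, and from Tmem119 (0.0633%, or 2.03 CPM) to Ctss (2.30%, or 73.8 CPM) under anti-TIGIT. Klf2 UMIs were also concentrated: 1 cell held 78 of the 721 and 1 cell 41 of the 345, while no CD8 T cell held more than 5 UMIs of Klf3.

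Of the 9 ratios, 6 had an interval below 0 (Tcf7, Lef1, Id3, Il7r, Klf2 and Klf3) and none an interval above 0. Among all 9835 genes, 17.4% had an interval below 0 and 14.6% above. The median of the 9 on the log2(CPM + 5) scale was -0.50, beside -0.03 over all genes. The same 6 genes had intervals below 0 without mixed cells, where the background was 16.8% below and 13.5% above and the medians were -0.42 and -0.03. The plot of the ratios by T cell class shows both versions.

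**Figure D1:**
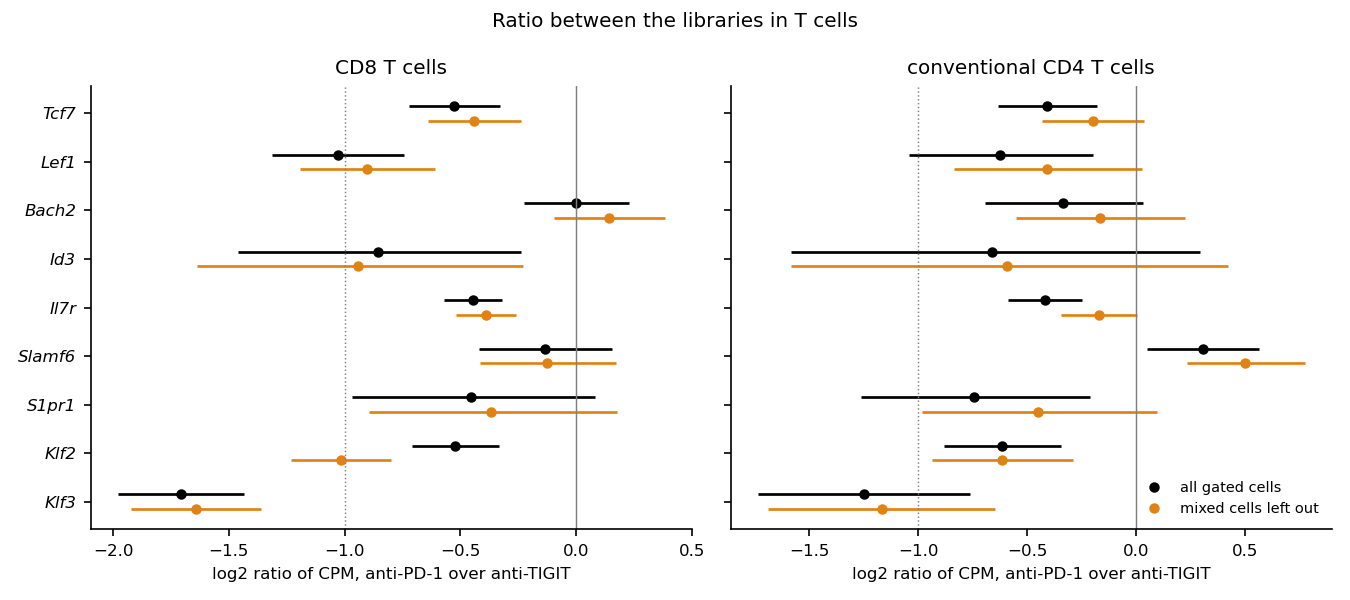
Level under anti-PD-1 divided by the level under anti-TIGIT, as log2, for the 9 genes in CD8 T cells (left) and conventional CD4 T cells (right), with 95% intervals of counting error; black points are all gated cells, orange points leave out mixed cells, and the dotted line is a 2-fold lower level. Klf3 lies left of the dotted line in both classes, and Klf2 in CD8 T cells moves from -0.52 to -1.02 when mixed cells are left out.

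Both pools held cells of either sex, in unequal shares: 446 and 72 CD8 T cells had Xist and no Y-linked UMI, and 354 and 222 the reverse. Klf3 was at 27.3 and 143 CPM in the Xist cells (log2 ratio -2.39, interval -2.99 to -1.79) and at 28.2 and 95.3 CPM in the Y-linked cells (-1.76, -2.26 to -1.26). Lef1 was lower in each as well, at 24.4 against 130 CPM (-2.41, -3.04 to -1.77) and 34.7 against 65.6 CPM (-0.92, -1.43 to -0.41). So was Klf2, with ratios of -1.13 and -0.81 and intervals below 0. Tcf7 was lower in the Y-linked cells at -0.73 (-1.06 to -0.40) and unresolved in the Xist cells at -0.38 (-0.93 to 0.21). The pooled Il7r difference was not resolved in either: 0.22 (-0.20 to 0.67) in Xist cells and -0.19 (-0.41 to 0.03) in Y-linked cells. Whether the ratios of the 2 sexes differ was not tested.

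In conventional CD4 T cells, Klf3 was again the 1 gene called lower, now of 8 with at least 50 UMIs. It had 72 and 75 UMIs, 29.7 and 70.6 CPM, a ratio of -1.25 (-1.74 to -0.76). The background was 0.682% of 7332 genes lower and 2.61% higher. With called doublets kept, its difference on the log2(CPM + 5) scale was -0.93, short of 2-fold, as it was at -0.87 on the log2(CPM + 20) scale. Klf2 was at 118 and 180.8 CPM (-0.62, -0.88 to -0.34), but at -0.23 with called doublets kept. Its 10 highest cells held 47.2% and 43.8% of its UMIs, so the interval understates its error. S1pr1 was at 30.9 and 51.8 CPM (-0.74, -1.26 to -0.21). Tcf7 stood at 180.7 and 240.1 CPM (-0.41, -0.64 to -0.18), Lef1 at 49.5 and 76.3 CPM (-0.62, -1.04 to -0.20) and Il7r at 324 and 433 CPM (-0.42, -0.59 to -0.25). Bach2 was unresolved at -0.33 (-0.69 to 0.03), and Id3, with 26 and 18 UMIs, was too sparse to count. Slamf6 differed from the rest, being higher under anti-PD-1, at 199 and 161 CPM with a ratio of 0.30 (0.05 to 0.56).

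In conventional CD4 T cells 6 of the 8 intervals lay below 0 and 1 above, beside 11% and 9.74% of all genes. The median was -0.50, beside -0.02. Leaving out mixed cells, 45 (7.88%) and 9 (2.79%) of this class, reduced this to 2 below 0, Klf2 (-0.62, -0.94 to -0.29) and Klf3 (-1.17, -1.69 to -0.65). The intervals of Tcf7 (-0.20), Lef1 (-0.41), Il7r (-0.17) and S1pr1 (-0.45) then held 0. Slamf6 was still above 0, at 234 and 165 CPM (0.50, 0.23 to 0.77). The background without mixed cells was 7.56% of 6612 genes below 0 and 10.8% above, with 0.514% called lower and 1.83% called higher, and the medians were -0.29 for the members and 0.03 for all genes. C1qa stood at 275 CPM with and 154 CPM without mixed cells under anti-PD-1, and at 65.9 and 7.28 CPM under anti-TIGIT, so the remaining cells of the 2 libraries still differed in this microglial transcript.

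The other T cells showed no Cd4, Cd8, Foxp3 or Trdc UMI or a conflicting set. Klf3 was at 32.9 and 101 CPM (-1.61, -1.97 to -1.25) and Klf2 at 112 and 185 CPM (-0.72, -0.95 to -0.49). Lef1 was at 49.4 and 78.7 CPM (-0.67, -1.02 to -0.31), Tcf7 at 126 and 165 CPM (-0.39, -0.62 to -0.15) and Il7r at 395 and 556 CPM (-0.49, -0.62 to -0.36). Slamf6, at 103 and 85.7 CPM, had a ratio of 0.27 with an interval that held 0 (-0.04 to 0.58). Bach2 (-0.39, -0.69 to -0.08) and S1pr1 (-0.55, -1.06 to -0.02) had intervals below 0, and Id3 (-0.25) did not. Without mixed cells Slamf6 was above 0 at 0.35 (0.04 to 0.67), S1pr1 held 0 at -0.45 (-0.97 to 0.09), Klf2 was at -0.96 (-1.21 to -0.71) and Klf3 at -1.53 (-1.91 to -1.14).

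Klf3 was read in 11 classes with at least 100 cells in both libraries. Its interval lay below 0 in 7 of them and above 0 in none. Of the 3884 genes with at least 50 UMIs in each of these classes, 2.09% had an interval below 0 in at least 7 classes and above 0 in none. Klf3 was followed here for its CD8 T cell gap and these counts are its own, so that share is a description only. B cells had 15.9 and 55.4 CPM, a ratio of -1.80 (-2.68 to -0.97), on 19 and 38 UMIs. The ratio was smaller in cells of other lineages: -0.59 (-0.89 to -0.29) in type 2 conventional dendritic cells (cDC2), -0.41 (-0.60 to -0.21) in microglia and -0.33 (-0.46 to -0.19) in oligodendrocytes. Border macrophages (-0.18), oligodendrocyte precursors (OPC, -0.04), fibroblasts (0.09) and plasma cells (0.24) had intervals that held 0.

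The order of Klf3 levels therefore differed by library. Under anti-TIGIT, other T cells (101 CPM) and CD8 T cells (96.8 CPM) stood beside border macrophages (124 CPM), microglia (119 CPM) and fibroblasts (98.3 CPM), with overlapping intervals between neighbours. Under anti-PD-1, the same T cell classes (32.9 and 29.7 CPM) stood under border macrophages (110 CPM), fibroblasts (104 CPM), microglia (89.6 CPM) and oligodendrocytes (48.5 CPM). Regulatory T cells, with 350 cells under anti-PD-1, had 12.96 CPM. CD8 T and other T cells thus lay below oligodendrocytes in Klf3 under anti-PD-1 and above them, at 60.8 CPM, under anti-TIGIT, with no overlap of intervals in either case.

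**Figure D2:**
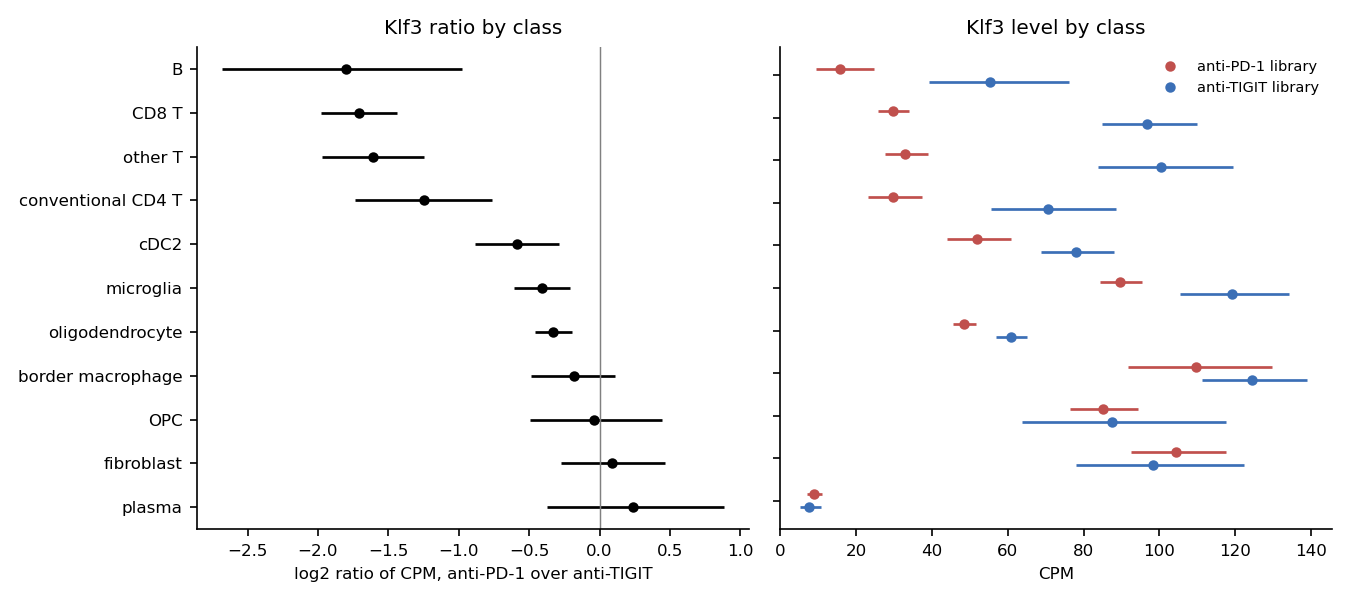
Klf3 in the 11 cell classes with at least 100 cells in both libraries: on the left the log2 ratio between the libraries (negative is lower under anti-PD-1), on the right the level in CPM in each library, with 95% intervals of counting error. B, CD8 T, other T and conventional CD4 T cells have ratios from -1.80 to -1.25, and the other 7 classes lie between -0.59 and 0.24.

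No other gene of the 9 was lower in as many classes as Klf3. Klf2 had intervals below 0 in 6 of the 11 classes and above 0 in 3, Bach2 in 5 and 0, Lef1 in 4 and 1, S1pr1 in 4 and 1, and Il7r in 4 and 2. Tcf7 and Id3 had 3 below 0 each, with 2 and 1 above, and Slamf6 had 2 below and 3 above. The share of all genes that reach such class counts was found for the Klf3 pattern only, so these counts are a description. B cells had lower values for several of the genes under anti-PD-1. Over the 4835 genes with at least 50 UMIs in B cells, the median was -0.07 on the log2(CPM + 5) scale. The share of those genes that was lower was not counted. S1pr1 there was at 20.9 and 71.5 CPM (-1.77, -2.53 to -1.05), Klf2 at 339.98 and 790.3 CPM (-1.22, -1.41 to -1.03) and Bach2 at 158 and 344 CPM (-1.12, -1.41 to -0.84). Lef1 in B cells was 1 against 16 UMIs, a log2 ratio of -4.80 with an interval of -10.19 to -2.12.

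Each gene had its own place among the cell classes, given here for those with at least 100 cells in a library. Tcf7 was highest in conventional CD4 T cells (180.7 and 240.1 CPM), then other T cells (126 and 165 CPM) and CD8 T cells (90.4 and 130.2 CPM). Natural killer cells of the anti-TIGIT library had 145 CPM, overlapping its other T and CD8 T cells, and regulatory T cells under anti-PD-1 had 28.3 CPM. Every class that is no T or natural killer cell had at most 11.7 CPM of Tcf7. Lef1 was led by the same lymphocytes, at 49.5 CPM in conventional CD4 T and 49.4 CPM in other T cells under anti-PD-1. Under anti-TIGIT it stood between 70.8 and 80.8 CPM in natural killer, other T, conventional CD4 T and CD8 T cells, whose intervals overlapped from one to the next.

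Bach2 and Id3 peaked outside the T cells. Bach2 was highest in B cells, at 158 and 344 CPM, and lay near its CD8 T cell level in several myeloid and glial classes, such as type 2 dendritic cells (91.6 and 125 CPM) and oligodendrocyte precursors (72.7 and 108 CPM). Id3 was almost wholly a fibroblast transcript, at 894 and 1157 CPM there and at most 33.5 CPM in any other of these classes. The CD8 T cell Id3 level of 8.53 and 15.5 CPM is thus about as low as that of most classes.

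Il7r was a transcript of lymphoid cells. Under anti-PD-1, regulatory and other T cells both had 395 CPM, followed by conventional CD4 T (324 CPM) and CD8 T cells (220.4 CPM). Under anti-TIGIT the order was other T (556 CPM), conventional CD4 T (433 CPM), CD8 T (300.3 CPM) and natural killer cells (169.96 CPM), with no overlap between neighbours. A pair of smaller classes was higher still: 68 and 42 type 2 innate lymphoid cells had 1277 and 1374 CPM, and 18 and 17 gamma-delta T cells had 1271 and 916 CPM. Slamf6 was highest in conventional CD4 T cells (199 and 161 CPM). Other T cells (103 and 85.7 CPM), B cells (63.5 and 99.2 CPM) and CD8 T cells (51.4 and 56.6 CPM) followed. B cells overlapped CD8 T cells under anti-PD-1 and other T cells under anti-TIGIT.

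S1pr1, also a receptor of stromal cells, was highest in fibroblasts under anti-PD-1 (53.2 CPM) and in B cells under anti-TIGIT (71.5 CPM), where the interval overlapped that of conventional CD4 T cells. In conventional CD4 T, other T and CD8 T cells it was at 30.9, 25.6 and 13.7 CPM under anti-PD-1 and at 51.8, 37.4 and 18.7 CPM under anti-TIGIT. Klf2 was highest in macrophages, with 2958 and 2767 CPM in border macrophages and 1896 and 3207 CPM in microglia. All T cell classes lay far under those values. In anti-PD-1 oligodendrocytes, Klf2 was at 31.4 CPM against 9.18 CPM under anti-TIGIT. Tcf7, Lef1, Il7r and Slamf6 were at 1.45 to 7.70 CPM against 0.278 to 0.904 CPM in the same cells. These transcripts of other cells were thus more frequent in oligodendrocytes of the anti-PD-1 library, the library with the lower levels of Tcf7, Lef1, Il7r and Klf2 in its CD8 T cells. Their part in the T cell ratios was not tested.

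**Figure D3:**
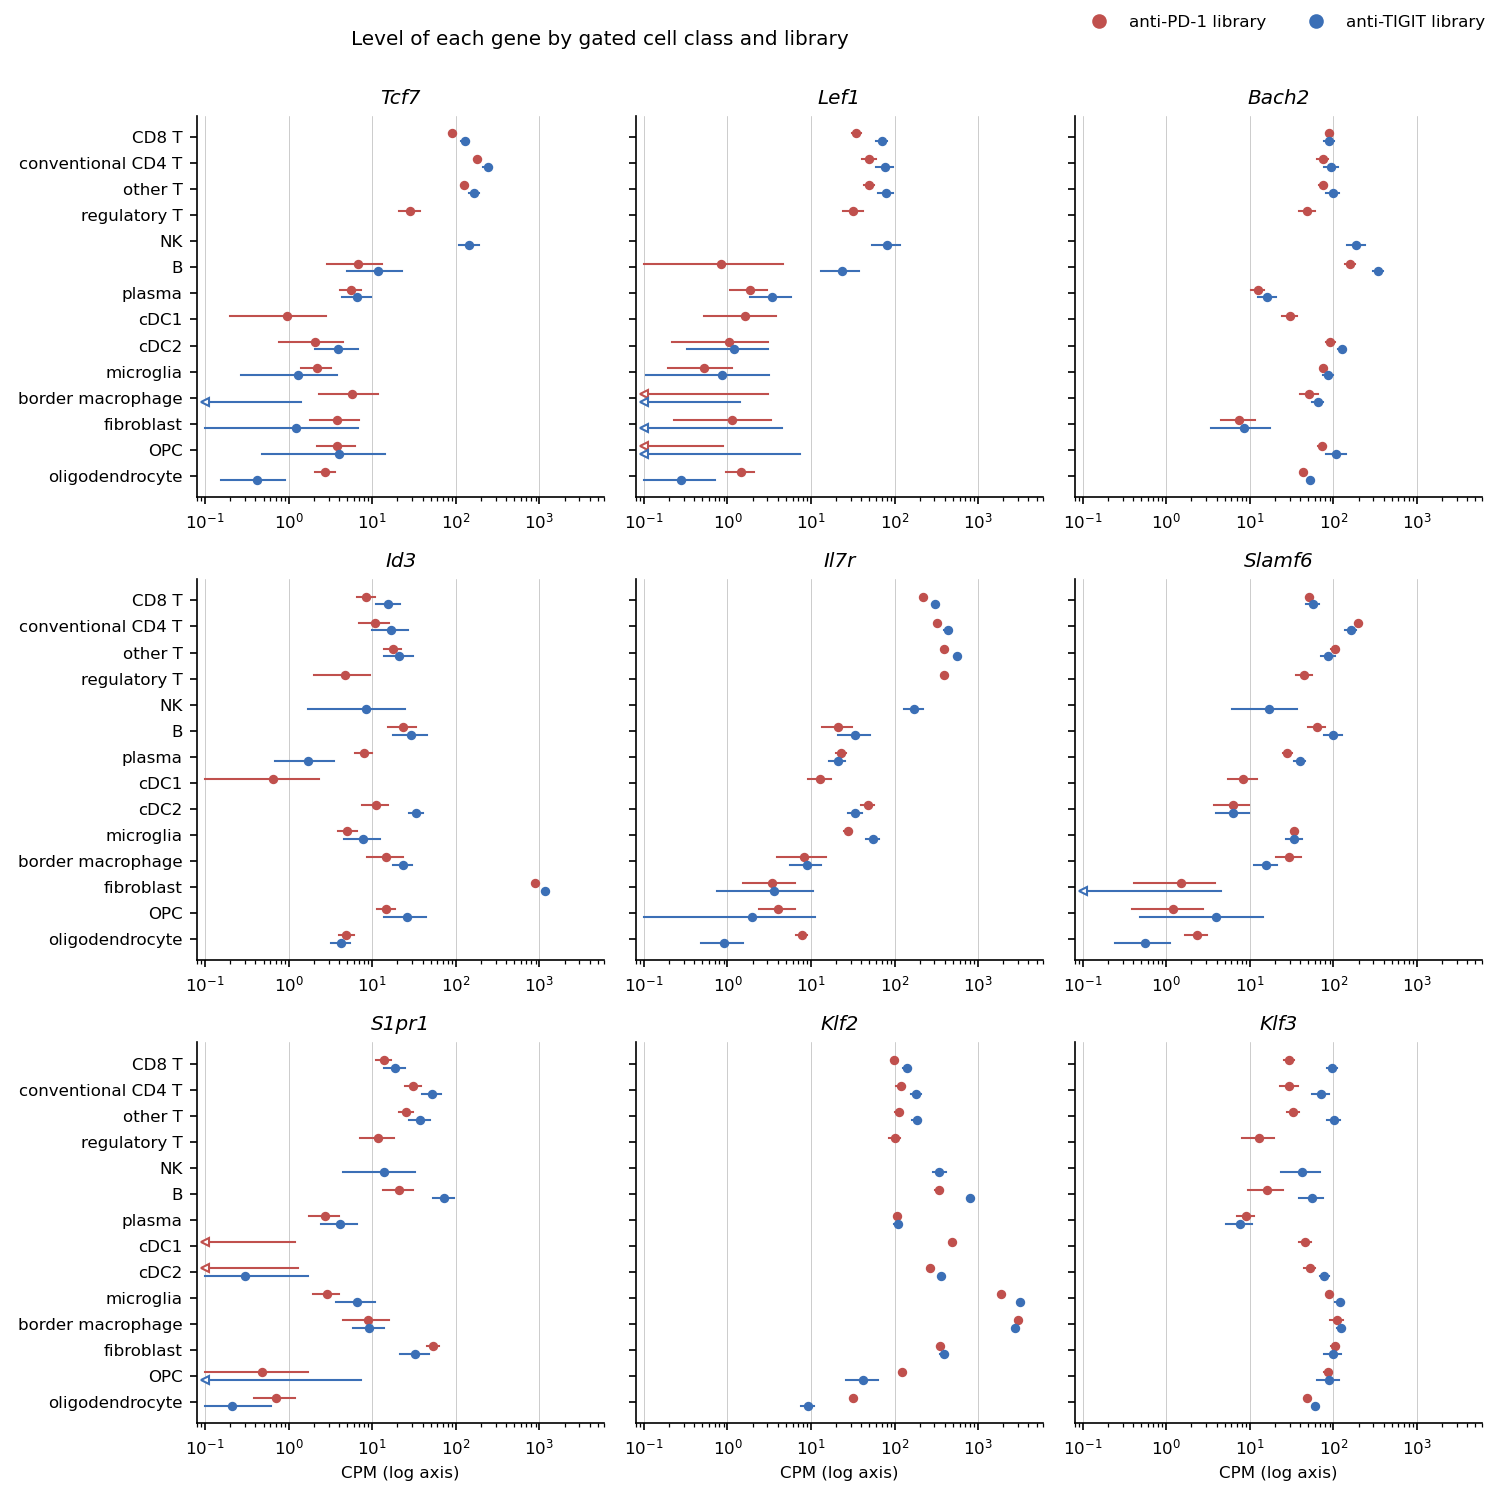
Level of each of the 9 genes in CPM on a log axis, by cell class and library, with 95% Poisson intervals; open triangles at the left edge mark classes with no UMI. Tcf7, Lef1 and Il7r are highest in T and natural killer cells, Bach2 in B cells, Id3 in fibroblasts and Klf2 in macrophages and microglia.

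Levels over a class can hide how many cells hold the transcript. Each CD8 T cell was therefore thinned to 1000 UMIs, which left out 20 and 4 shallower cells and kept 1565 and 644, and the ranges given are over 5 random draws. Klf3 was detected in 2.30% to 3.39% of anti-PD-1 cells and 10.4% to 12.4% of anti-TIGIT cells. Tcf7 was detected in 7.73% to 8.75% and 10.7% to 14.0%, Lef1 in 2.88% to 3.51% and 6.37% to 7.14%, and Klf2 in 5.62% to 6.52% and 9.94% to 10.6%. For these 4 genes the ranges of the 2 libraries did not overlap, and they did not for Il7r (16.9% to 18.3% and 21.3% to 23.9%) or S1pr1 (0.831% to 1.53% and 2.02% to 2.48%). For Id3 they did not overlap either, but its share was 0.319% to 0.703% and 0.776% to 1.40%. Bach2 (8.05% to 8.50% and 6.06% to 8.07%) and Slamf6 (3.96% to 4.79% and 3.73% to 5.75%) overlapped. How many of all genes would have ranges that stay apart was not counted. The ranges given here cover random thinning only, not the sampling of cells. A gap between them thus does not by itself set the libraries apart. The ratio of S1pr1 levels, for 1, had an interval that held 0 (-0.97 to 0.08).

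Without thinning, Klf3 had a UMI in 10.1% and 24.4% of CD8 T cells, Tcf7 in 23.2% and 31.0%, Lef1 in 11.4% and 20.1%, and Klf2 in 13.7% and 20.7%. Oligodendrocytes, thinned alike from medians of 6346 and 6239 UMIs, had Tcf7 in 0.388% and 0.0508% of cells and Il7r in 1.43% and 0.102%, far less than the T cells. Their Klf2 share was 4.65% and 0.711%, and the anti-PD-1 value is close to the 5.62% to 6.52% of CD8 T cells. Klf3 was in 4.81% and 6.09% of oligodendrocytes, so the anti-PD-1 CD8 T cells had a smaller share than oligodendrocytes, and the anti-TIGIT CD8 T cells a larger one.

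Few of the thinned CD8 T cells showed several of the genes at once. At 1000 UMIs, 61.3% to 62.2% of anti-PD-1 and 45.5% to 48.0% of anti-TIGIT CD8 T cells had none of the 9. At least 2 genes were seen in 10.3% to 12.3% and 17.7% to 20.7% of cells. The libraries were closer in conventional CD4 T cells, with none of the genes in 38.6% to 42.0% and 35% to 41.6% of cells and at least 2 in 22.4% to 24.9% and 25.9% to 29.4%.

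Pdcd1, which encodes PD-1, was used to read where in the CD8 T cells each gene lay. At 1000 UMIs it was detected in 47.2% to 49.6% of anti-PD-1 and in 13.5% to 17.2% of anti-TIGIT CD8 T cells. Under anti-PD-1, Pdcd1 was found in 24.1% to 36.4% of cells with Tcf7 and 48.3% to 52.0% of cells without it. Under anti-TIGIT the shares were 4.17% to 11.6% and 14.6% to 18.4%. The share was lower in Tcf7-positive cells in all 5 draws of each library. The draws thin the same cells again, so their agreement is not replication. Under anti-TIGIT the reported draw had Pdcd1 in 8 of 69 Tcf7-positive cells (11.6%), against 15.5% of the others. Whether this anti-TIGIT gap exceeds the error of sampling so few cells was not tested.

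Klf3, Lef1 and Klf2 separated from Pdcd1 in the same way. Of Klf3-positive cells, 9.43% to 23.9% had Pdcd1 under anti-PD-1, against 48.3% to 50.4% of the rest, and 2.99% to 8.33% against 14.6% to 18.8% under anti-TIGIT. In 1 draw these were 10 of 49 cells (20.4%, interval 10.2% to 34.3%) and 6 of 72 cells (8.33%, 3.12% to 17.3%). For Lef1 the anti-PD-1 shares were 5.66% to 22% against 48.4% to 51.1%, and for Klf2 20.6% to 26.4% against 48.5% to 51.4%. Cells with either of these were also poorer in Lag3, another inhibitory receptor: 0% to 10% with Lef1 and 9.68% to 18.3% with Klf2, against 27.6% to 29.2% of the others. Bach2 was unlike them. Its positive cells held Tox, a factor of exhausted T cells, more often than its negative cells: 55.9% to 63.9% against 40.3% to 43.0% under anti-PD-1 and 31.1% to 39.1% against 16.9% to 19.7% under anti-TIGIT.

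**Figure D4:**
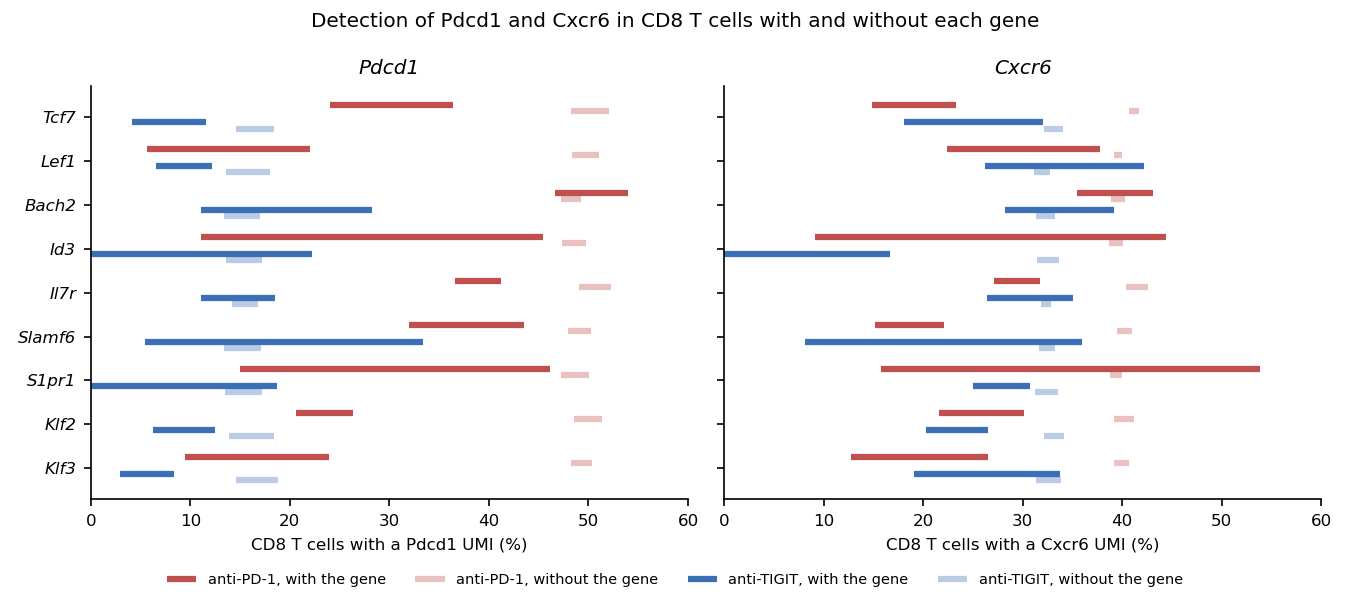
Percent of CD8 T cells with Pdcd1 (left panel) or Cxcr6 (right panel) among cells with (dark bars) and without (pale bars) each of the genes, by library, at 1000 UMIs a cell; bars span 5 random draws. Cells with Tcf7, Lef1, Klf2 or Klf3 lie at lower Pdcd1 shares than cells without, and Bach2 does not separate.

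Other partners described the Tcf7-positive cells further. Cxcr6, a receptor of tissue-held T cells, was in 14.9% to 23.3% of Tcf7-positive and 40.7% to 41.7% of Tcf7-negative anti-PD-1 cells. Under anti-TIGIT its shares were 18.1% to 32.1% and 32.1% to 34.0%. Lag3 was in 13.2% to 16.9% against 28.3% to 29.5% and Havcr2, which marks terminal exhaustion, in 0% to 2.21% against 5.87% to 7.70% of anti-PD-1 cells. Il7r went the other way, being in 29.3% to 36.8% of Tcf7-positive and 15.7% to 17.3% of Tcf7-negative anti-PD-1 cells, and in 26.4% to 36.7% and 20.04% to 23.3% of anti-TIGIT cells. Slamf6 was in 8.03% to 14.0% against 3.12% to 4.16% under anti-PD-1. The chemokine gene Xcl1, a marker of progenitor-exhausted cells, was in 32.1% to 44.4% against 24.4% to 24.7%. The Lag3, Havcr2, Slamf6 and Xcl1 contrasts are given for anti-PD-1 only. Under anti-TIGIT, Tcf7 and Slamf6 were seen together in 3 to 7 of 644 CD8 T cells, too few to compare. Klf3-positive cells held Gzmk more often than negative ones, at 28.3% to 41.5% against 23.5% to 25.9% and 37.3% to 48.5% against 28.0% to 30.1%.

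The full progenitor-exhausted combination was seen in very few of the thinned cells. Tcf7 with Pdcd1 was seen in 32 to 49 of 1565 anti-PD-1 CD8 T cells and in 3 to 8 of 644 anti-TIGIT cells. Without thinning, Tcf7 with Pdcd1 was seen in 219 of 1585 and 48 of 648 cells. The counts thus depend on depth, and the thinned ones do not show how rare such cells are. After thinning, Tcf7, Slamf6 and Pdcd1 together were seen in 2 to 6 and 0 to 1 cells. Klf2 with S1pr1 was seen in 1 to 7 and 2 to 5 cells. In conventional CD4 T cells (562 and 320 after thinning), Tcf7 with Slamf6 was seen in 25 to 39 and 8 to 21 cells, and all 3 of Tcf7, Slamf6 and Pdcd1 in 6 to 12 and 0 to 3. The CD4 cells with Tcf7 held Slamf6 in 26.3% to 40% under anti-PD-1, against 11.5% to 14.6% of those without.

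Levels were also summed on either side of the Pdcd1 split. Within the libraries, Pdcd1-positive CD8 T cells had less Klf3 than Pdcd1-negative ones, with log2 ratios over the 5 draws of -2.32 to -1.69 under anti-PD-1 and -2.18 to -1.19 under anti-TIGIT. Klf2 ratios ran from -2.01 to -0.63 and from -2.24 to -0.94, Lef1 from -1.93 to -1.36 and from -1.45 to -0.26, and S1pr1 from -1.51 to -0.97 and from -2.27 to -0.94. Tcf7 lay at -1.27 to -0.70 and -1.32 to -0.38, and Il7r at -0.58 to -0.35 and -0.53 to -0.24. Bach2 was at 0.20 to 0.46 under anti-PD-1 and at -0.25 to 0.86 under anti-TIGIT. Slamf6 was at -0.59 to -0.08 under anti-PD-1, with an interval below 0 in 3 of 5 draws, and at 0.00 to 0.71 under anti-TIGIT, with an interval above 0 in 2 of 5. In 1 draw without mixed cells, the anti-PD-1 ratios of Lef1 (-2.62), Klf2 (-2.47) and S1pr1 (-1.73) were below the ranges given here, and Slamf6 was at -0.43 and, under anti-TIGIT, -0.33 with an interval that held 0 (-1.10 to 0.36). Split by Tox in 1 draw, Bach2 was higher in positive cells (1.22 and 1.60), as was Slamf6 (0.66 and 1.10), and Klf3 was lower (-1.77 and -0.68).

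**Figure D5:**
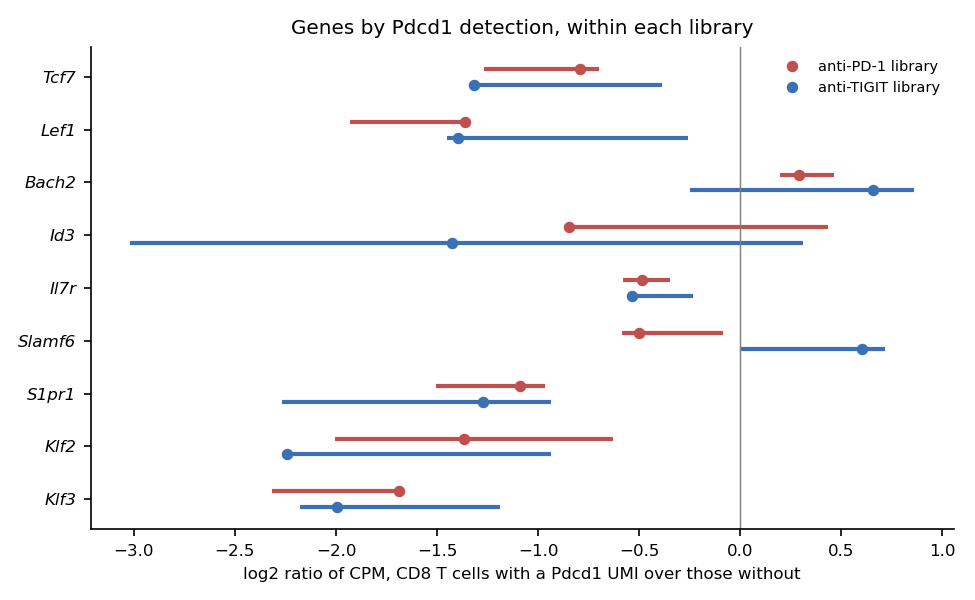
Log2 ratio of CPM in CD8 T cells with a Pdcd1 UMI over those without, for the 9 genes in each library. The split used cells thinned to 1000 UMIs, and CPM used all UMIs of each cell. Points are the reported draw and bars the range over 5 draws. Klf3, Klf2, Lef1, Tcf7, S1pr1 and Il7r lie below 0 in both libraries, Bach2 lies above 0 under anti-PD-1, Slamf6 lies below 0 under anti-PD-1 and at or above 0 under anti-TIGIT, and Id3 spans 0 in both.

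Since Pdcd1-positive cells were more frequent under anti-PD-1, the libraries were compared within each side. In Pdcd1-negative cells (800 and 547 in the reported draw), Klf3 was lower under anti-PD-1 by a log2 ratio of -1.37, with a range of -1.37 to -1.24 and an interval below 0 in 5 of 5 draws. In Pdcd1-positive cells (765 and 97) its ratio was -1.07, with a range of -2.09 to -1.07 and again an interval below 0 in 5 of 5 draws. The Tcf7 ratio lay at -0.41 to -0.19 in negative and at -0.68 to 0.20 in positive cells, beside -0.53 over all CD8 T cells. Lef1 lay at -0.73 to -0.47 in negative cells, and at -2.13 to -0.70 in positive cells. Many of the 800 anti-PD-1 negative cells, and a smaller part of the 547 anti-TIGIT ones, did carry a Pdcd1 UMI at full depth. The thinned split thus did not fully even out Pdcd1 between the libraries. Splitting by any Pdcd1 UMI without thinning gave 401 and 450 negative cells. In these Tcf7 (-0.01), Lef1 (0.05), Il7r (0.07) and Klf2 (-0.12) all had intervals that held 0, as did Bach2, Slamf6 and S1pr1. Klf3, at 78.6 and 132 CPM, had a ratio of -0.75 (-1.08 to -0.42), and Id3, on 12 and 31 UMIs, -1.49 (-2.58 to -0.49). Among the 1184 and 198 positive cells of that split, Klf3 (-1.45, -1.98 to -0.89), Lef1 (-1.12, -1.67 to -0.55), Il7r (-0.44, -0.64 to -0.23) and Slamf6 (-0.49, -0.88 to -0.09) had intervals below 0, and the other 5 genes held 0. Klf2 depended on the mixed cells here too. In the thinned split it lay at -0.46 to -0.02 in negative and at -1.09 to 0.60 in positive cells. In 1 draw without mixed cells it was at -0.51 (-0.74 to -0.28) in negative and -1.64 (-2.36 to -0.88) in positive cells. Tcf7 (0.20, -0.40 to 0.86) and Il7r (0.04, -0.30 to 0.40) then held 0 in positive cells.

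Genes that work with the 9 were read from lists in the same CD8 T cells, with mixed cells kept. The lists were not read without mixed cells. Of the 10 egress and circulation genes with enough UMIs, 1 was called lower, Gpr183 (79.6 and 192 CPM, -1.27), an oxysterol receptor that guides lymphocytes. Intervals of this list lay below 0 for 7 and above 0 for 1, with a median of -0.48. Klf2, 1 of the 7, and S1pr1 are members counted before, and over all genes 0.813% were called lower, 17.4% had an interval below 0 and 14.6% above. Cxcr4 (85.0 and 173 CPM, -1.02), Itgb7 (99.0 and 178 CPM, -0.85) and Cd69 (168 and 278 CPM, -0.73) were among the 7, and Ccr7 (68.1 and 54.5 CPM, 0.32) was the 1 above; these 4 were picked after their values were seen. CD69 pulls S1PR1 from the cell surface, and both transcripts were lower in value under anti-PD-1, S1pr1 without a resolved interval. The KLF family of 8 genes had 1 called, Klf3, 5 intervals below 0, none above and a median of -0.36.

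Lists nearer to differentiation followed, again with mixed cells kept. Over all genes in CD8 T cells, 17.4% of intervals lay below 0 and 14.6% above, with 0.813% called lower and 2.5% called higher. Of 8 naive and central memory genes, none was called, 3 intervals lay below 0 and 2 above, and the median was -0.16. The 13 progenitor-exhausted genes, 6 of which are among the 9, had none called, 8 below 0, 1 above (Tox, 0.79) and a median of -0.32. The 11 genes of IL-7 receptor signalling had 4 below, 3 above and a median of -0.08, the 7 partners of TCF and LEF 4 below, 0 above and -0.30, and the 10 genes of the SLAM family and its adaptors 5 below, 3 above and -0.14. ID and E proteins had 4 of 5 below 0 and a median of -0.46, and BACH and small MAF proteins none of 5 either way and -0.28. None of these last 5 lists had a gene called.

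The 8 opposing effector factors had 1 gene called higher, Batf (208 and 89.9 CPM, 1.21), which drives effector and exhausted T cells, with 4 intervals above 0, 2 below and a median of 0.21. Among 12 genes for the supply of ligands by other cells, 3 had enough UMIs in CD8 T cells, with no interval away from 0 and a median of -0.07. A list of immediate early and heat shock genes, which dissociation can induce, was added after the data were seen. Of 10 read, 2 were called higher under anti-PD-1, Jun (1.16) and Atf3 (1.66), 8 intervals lay above 0 and 1 below (Hsp90aa1, -0.68), with a median of 0.44. Beside these counts, 2.5% of all genes in CD8 T cells were called higher, 14.6% had an interval above 0 and 17.4% below. Mixed cells were kept for these lists as well, and their part in the values was not tested. The part of the immediate early and heat shock genes in the ratios of the 9 was not tested.

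The egress list in conventional CD4 T cells had a median of -0.50, with 6 intervals below 0, 1 above and none of 9 called. Klf2 and S1pr1, both among the 6, are members counted before. Mixed cells were kept here, and S1pr1 held 0 without them. Over all genes of this class 11% had an interval below 0 and 9.74% above, with 0.682% called lower and 2.61% higher. Xcl1 (101 and 342 CPM, -1.76) was the 1 progenitor-exhausted gene called lower there, and Tcf4 (67.7 and 26.4 CPM, 1.36) the 1 ID or E protein called higher. Both names were taken after their values were seen. The lists other than egress had medians from -0.34 to 0.17.

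Genes whose levels followed each member most closely were found by Pearson r of log2(CPM + 5) over 25 class and library sums, which share libraries and depth. For Tcf7 they were Ifng (0.98), Ms4a4b (0.97) and Sidt1 (0.97), and for Lef1 they were Gfi1 (0.97), Il27ra (0.97) and Tcf7 itself (0.96). Il7r was nearest to Xlr4a, Hcst and Rinl (each 0.95), Slamf6 to Tspan32, Ctse and Inpp4b (each 0.90) and Klf2 to Rreb1 (0.94) and Dnase2a (0.92). Bach2 (Atg101, Homer1 and Pvt1, from 0.88 to 0.84), S1pr1 (Cdc25b, B3gnt2 and Tlk1, each 0.86) and Klf3 (Tug1, Pdlim5 and Mfap3, from 0.84 to 0.81) had looser neighbours. Id3, set by its fibroblast level, was nearest to Zic1, Rfk and Aifm3 (each 0.93).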

How the data were processed

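Each library is a 10x Genomics 5′ single-cell matrix whose values are UMI counts as deposited by the authors: Cell Ranger 8.0.0 made the anti-PD-1 matrix and 8.0.1 the other, per the file headers. The mm10 build, Seurat 5.0.3 and R 4.1.1 are named per the submitters' processing notes; the annotation and any step that removed doublets or ambient RNA are not given in the sources used here. Barcodes with under 200 genes or over 10% mitochondrial UMIs were left out, as were 576 and 155 doublets called by Scrublet (scanpy 1.11.5). Cells were gated by marker lists, and 16.5% and 14.0% stayed ungated. Plasma cells in both libraries and anti-PD-1 astrocytes had none of their markers among their 10 leading genes, so their names rest on the gate alone. Raw UMIs were summed per class and library with Python 3.11.15, numpy 2.4.6 and scipy 1.17.1. A gene was called when at least 2-fold apart on log2(CPM + 5), with at least 50 UMIs over both libraries. The calls were checked on simulated Poisson counts with changes larger than 2-fold. Such counts hold neither UMIs crowded into few cells nor differences between pools, so the check does not cover these.

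The members, lists and alternatives were chosen with earlier results of these data known. All 9 members are named; other list genes are named by rule when called in CD8 T cells, at most 4 a list; Cxcr4, Itgb7, Cd69, Ccr7, Tox, Hsp90aa1, Xcl1 and Tcf4 were named outside it after their values were seen. Nearest genes are the 3 highest in Pearson r among genes with at least 200 UMIs, of which 1 for Klf2 is not reported here. Leaving out mixed T cells and repeating the thinning in 5 draws were added after seeing the data. Promoters are from the RefSeq table of GRCm38.p6, cut back to bases before the gene's first annotated base.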

Additional observations from a re-analysis of the deposited data

How the results depend on the processing

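No paired analysis was possible because each treatment is 1 library and the labels give no replicate numbers. Of 99 member ratios recomputed under alternatives, 82 lay inside the reported interval and 90 had the same sign. The 9 with the other sign were 6 of Bach2 (reported at 0.00, up to 0.54) and in Xist-positive cells Id3, Il7r and Slamf6 (0.29, 0.22 and 0.72). The 1 member called lower in CD8 T cells became 3 (Lef1, Klf2 and Klf3) in Xist-positive cells only, and 2 (Lef1 and Klf3) with a pseudocount of 1 CPM or with cells thinned to 1000 UMIs before summing. In conventional CD4 T cells the 1 call became 0 without doublet removal and with a pseudocount of 20 CPM. Klf3 was lower in 7 classes under each alternative run. Without mixed cells, genes called higher in conventional CD4 T cells went from 191 to 121 and intervals below 0 from 810 to 500.

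Shares move with depth. The share of anti-PD-1 CD8 T cells with any of the 9 genes, 38.3% as reported, was 23.5% at 500 UMIs, 53.2% at 2000 UMIs, 66.9% unthinned, 32.2% in Xist-positive and 42.8% in Y-linked cells. The anti-TIGIT share of 54.5% was 32.9%, 72% and 80.7% at 500 UMIs, at 2000 UMIs and unthinned. Tcf7-positive cells with Pdcd1, 26.3% under anti-PD-1, were 45.2% at 2000 UMIs, 59.5% unthinned and 36.4%, 34.7% and 36.0% in draws 2, 4 and 5. The 11.6% under anti-TIGIT was 2.94% at 500 UMIs, 23.9% unthinned, 0% in Xist-positive cells, 5.13% without mixed cells and 4.17% in draw 2. The Klf3 ratio in Pdcd1-positive cells (-1.07) was -2.41 when split by Tox and -2.09 in draw 4. In Pdcd1-negative cells (-1.37) it was -0.75 when split without thinning. The cause was not tested. One library a treatment limits every comparison to these pools.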
